A study of Mus musculus with 13 samples.

Results

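The cardiac sarcomere genes described here are 10 genes that encode structural proteins of heart muscle, chosen by name as Actc1, Tnnt2, Myl4, Myl7, Myh6, Myh7, Tnnc1, Tnni1, Ttn and Mybpc3. Each had a single row among the 45250 gene rows of the deposited RNAseq table, and 9 of the 10 had a value above 0 in at least 1 library. Mybpc3 was listed at 0 in every library and was not detected. The levels of the others were low, and only Myl7 reached a mean above 10 FPKM in any group. FPKM is a count of sequenced fragments scaled to transcript length and to library size, so that levels of different genes can be set side by side.

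The study asked how loss of the bridging factor LMO2 changes gene expression on the way from mouse embryonic stem (ES) cells to blood. Its 13 RNAseq libraries came from WT, Lmo2-/- and Tal1-/- ES cells. Each genotype gave 3 libraries of Flk-1+ cells, which are haemangioblasts (HB) enriched from embryoid bodies by the receptor Flk-1. There were 2 libraries each of WT and Lmo2-/- HE1, the first haemogenic endothelium, sorted after blast culture as Tie2+ and Kit+ cells without CD41. The WT line was CCB, and the methods name a single ES cell line for each genotype, so a genotype cannot be told apart from its line. The methods call the libraries of a group independent and the samples biological replicates, so p-values measure the spread between replicates of 1 line.

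The sarcomere is the contractile unit of heart muscle. Thin filaments of cardiac actin carry troponin C, which binds calcium, together with the inhibitory troponin I and with troponin T, which anchors the complex to tropomyosin. Thick filaments are bundles of myosin heavy chains, each with an essential and a regulatory light chain, and titin and myosin binding protein C hold them in register. Haemangioblasts arise from mesoderm that expresses Flk-1, and cardiac progenitors come from Flk-1+ mesoderm as well.

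The targeted genes were checked first. Lmo2 was at 21.6, 22.8 and 30.8 FPKM in WT Flk-1+ cells and at 2.17, 2.63 and 6.48 FPKM in Lmo2-/- Flk-1+ cells. Tal1 was at 22.0 to 37.4 FPKM in WT and at 2.74 to 3.41 FPKM in Tal1-/- Flk-1+ cells. In Lmo2-/- Flk-1+ replicates 0, 1 and 2 Tal1 was at 6.51, 29.0 and 6.64 FPKM. Replicate 1 was thus within the WT range of Tal1, and it also held the 6.48 FPKM of Lmo2. In Tal1-/- Flk-1+ cells Lmo2 was at 0, 7.58 and 1.29 FPKM. In HE1, Lmo2 was at 4.30 and 20.6 FPKM in the libraries labelled WT and at 6.42 and 0 FPKM in those labelled Lmo2-/-, so that it did not separate them, and directions between HE1 genotypes rest on the labels. Kdr, which encodes Flk-1, ran from 68.7 to 252 FPKM in the 9 Flk-1+ libraries, and the HE1 sort markers Tek (Tie2) and Kit from 121 to 176 and from 42.4 to 68.5 FPKM in the 4 HE1 libraries. Itga2b, which encodes the CD41 that HE1 was sorted to lack, was nonetheless at 15.4 and 10.4 FPKM in WT HE1 and at 19.8 and 0 FPKM in HE1 labelled Lmo2-/-, against 0 to 5.54 FPKM in Flk-1+ cells. In each library a smallest step, that of a single fragment, was fitted to low values, scaled by length, of genes with a single annotated transcript. Between 94.3% and 98.5% of these 174 to 977 values lay within 0.1 of a whole multiple of the step. The step was chosen for its fit to these same values, so this share is no independent check. This step was largest in replicate 1 of the HE1 labelled Lmo2-/-, at 3.80 times the median over the others, against 0.592 to 1.59 times in each of those, so this library was the shallowest. Of 4079 genes with a median FPKM above 10, it listed 191 at 0, against 1 to 59 in each of the others.

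The same steps give an estimate of the fragments behind each value, for the transcript length of the gene, and these estimates cover counting error only. A value listed at 0 allows up to 3 fragments, and it can also be a failed estimate of the authors' software. In WT Flk-1+ replicate 1, Ttn was listed at 0, while 3 fragments would be 0.00416 FPKM and about 366 and 177 fragments were estimated in the other two WT libraries. In bulk samples such as these, fewer cells of a type and less RNA per cell cannot be told apart.

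Of the 130 values of the 10 genes in the 13 libraries, 55 were listed at 0, 32 lay above 0 and below 1 FPKM, and 6 reached 10 FPKM. The summed FPKM of the genes was 16.4, 18.1 and 18.6 in WT, 21.5, 31.7 and 29.8 in Lmo2-/- and 18.4, 11.6 and 8.47 in Tal1-/- Flk-1+ cells. It was 10.2 and 12.8 in WT HE1 and 15.98 and 18.9 in the HE1 labelled Lmo2-/-. The sums of Lmo2-/- Flk-1+ cells lay above those of WT, but Myl7 supplied from 29.1% to 73.0% of them, and a sum over chosen genes is given here without a test. Myl7 was the highest of the genes in 8 of the 9 Flk-1+ libraries and Actc1 in Tal1-/- replicate 0.

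**Figure D1:**
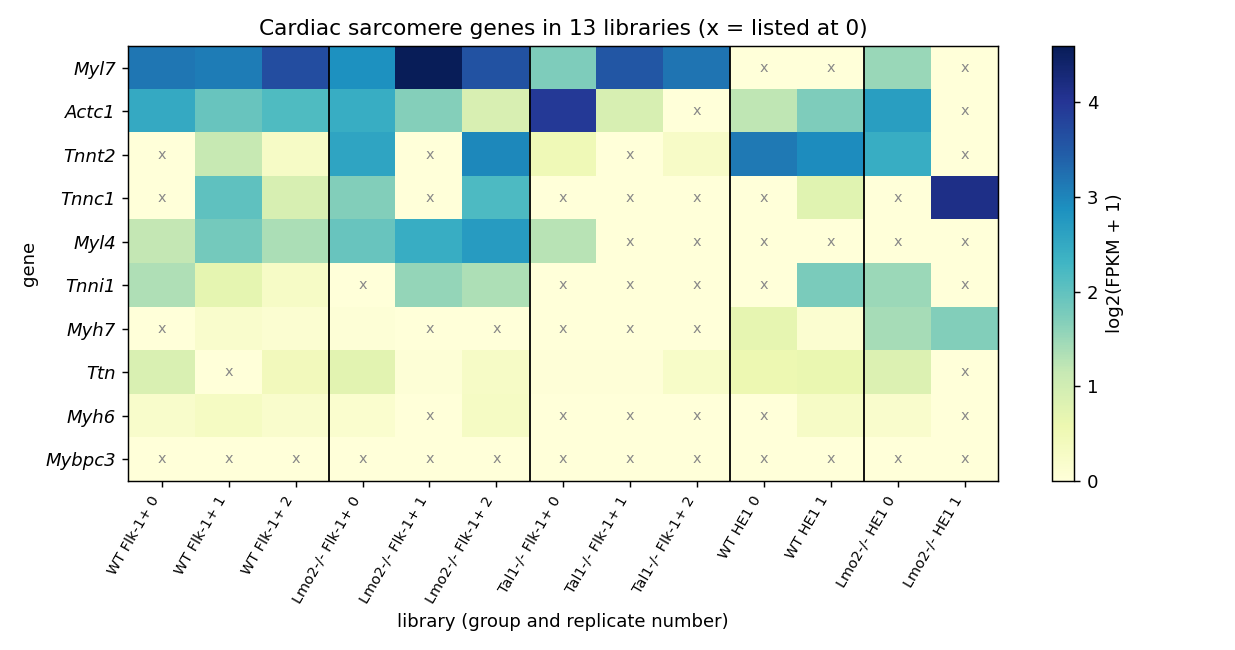
Level of the 10 genes (rows) in each of the 13 libraries (columns), as log2(FPKM + 1) in colour, with a cross where the value was listed at 0. Myl7 is the darkest row in Flk-1+ cells and is at or near 0 in HE1, Mybpc3 is crossed in every library, and the columns of Tal1-/- Flk-1+ cells hold crosses for Tnnc1, Tnni1, Myh7 and Myh6.

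To place these levels, the mean of each gene over the 9 Flk-1+ libraries was set against 13802 tested genes, those that reached 1 FPKM in 2 or more libraries. Myl7, at 9.87 FPKM, was higher than 69.2% of them, Actc1, at 3.71 FPKM, than 42.9%, and Myl4, at 2.17 FPKM, than 30.8%. The other members were higher than at most 24.1%. Within WT Flk-1+ cells the order by mean was Myl7, Actc1, Myl4, Tnnc1, Tnni1, Tnnt2, Ttn, Myh6, Myh7 and Mybpc3. The libraries of Myl7 did not overlap those of Actc1, and those of Actc1 did not overlap those of Myl4, while every later neighbour overlapped. In WT HE1 the highest was Tnnt2, whose libraries did not overlap those of the next gene, Actc1.

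Of the 10 genes, 7 passed the filter on low values and were tested in 1 limma fit on log2(FPKM + 1) over all 13 libraries. Myh6, Ttn and Mybpc3 did not pass. Myh7 passed only through the HE1 libraries labelled Lmo2-/-, where it is high, and so it had to differ there. Its values against those libraries are given as a description with no test, and the counts in comparisons that use them are over the other 6 genes. A gene was called at a Benjamini-Hochberg adjusted p below 0.05 over all tested genes where the mean of either group also exceeded 10 FPKM, a criterion that low genes cannot meet. All differences below are on the log2(FPKM + 1) scale, which understates the change of genes near 0. The median difference of all tested genes was 0.11 between the WT stages, 0.30 between the Lmo2-/- stages and 0.15 between the HE1 genotypes.

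Myl7 encodes the atrial regulatory light chain, an early marker of the forming heart tube. It lies on the minus strand of chromosome 11 of GRCm38 from 5896637 to 5898782, with a single annotated transcript of 590 bases. In WT Flk-1+ cells it was at 8.02, 7.54 and 11.7 FPKM, from about 16, 25 and 27 fragments. In Lmo2-/- Flk-1+ cells it was at 6.24, 23.2 and 11.1 FPKM, and in Tal1-/- Flk-1+ cells at 2.32, 10.7 and 8.09 FPKM. The group means were 9.09 ± 2.27, 13.5 ± 8.71 and 7.04 ± 4.29 FPKM (SD, n = 3), and the 3 groups overlapped. The difference from WT was 0.37 ± 0.59 (SE) in Lmo2-/- and -0.49 ± 0.59 in Tal1-/- cells, both smaller than their errors. In HE1 it was listed at 0 in both WT libraries and in replicate 1 labelled Lmo2-/-, and at 1.86 FPKM, about 3 fragments, in replicate 0. Because Myl7 is short, 3 fragments would already be 2.02 and 2.30 FPKM in the WT HE1 libraries and 5.505 FPKM in the shallow one, so a listing at 0 allows levels up to these.

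Actc1 encodes cardiac alpha-actin, the thin filament actin of the heart, and is on the minus strand of chromosome 2 from 114047282 to 114053548. Its locus in the deposited table is wider, from 114009601 to 114068324. In WT Flk-1+ cells it was at 4.59, 2.79 and 3.48 FPKM and in Lmo2-/- Flk-1+ cells at 4.37, 2.198 and 0.851 FPKM. In Tal1-/- Flk-1+ cells 1 library held nearly all of it, with 14.3 FPKM from about 89 fragments in replicate 0 against 0.885 and 0 FPKM in the other two. In WT HE1 it was at 1.33 and 2.31 FPKM, and in HE1 labelled Lmo2-/- at 5.32 and 0 FPKM. Its spread within groups, an SD of 1.30 on the log2 scale, was larger than that of 96.4% of tested genes, whose median SD was 0.596. The difference was -0.53 ± 0.89 (SE) from WT to Lmo2-/- and -0.57 ± 0.89 from WT to Tal1-/- Flk-1+ cells, and neither exceeded its error. The second became 0.23 without Tal1-/- replicate 2.

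Myl4 encodes the atrial essential light chain, made in the whole embryonic heart before it becomes restricted to the atria. It lies on the plus strand of chromosome 11 from 104550663 to 104595753. Its levels were 1.26, 2.53 and 1.58 FPKM in WT, 2.83, 4.39 and 5.51 FPKM in Lmo2-/- and 1.39, 0 and 0 FPKM in Tal1-/- Flk-1+ cells, from at most about 19 fragments a library. Every Lmo2-/- library lay above every WT and every Tal1-/- library, and WT and Tal1-/- overlapped. The means were 1.79 ± 0.658 FPKM in WT and 4.24 ± 1.35 FPKM in Lmo2-/- cells (SD, n = 3). The difference from WT to Lmo2-/- was 0.90 ± 0.42 (SE, limma, adjusted p = 1, unadjusted p = 0.0508). From WT to Tal1-/- it was -1.03 ± 0.42 (limma, adjusted p = 0.757), and from Lmo2-/- to Tal1-/- -1.94 ± 0.42 (limma, adjusted p = 0.293). Exact permutation tests, two-sided, gave p = 0.10 for the first and the last, the smallest that 3 against 3 libraries allow, and p = 0.20 for WT to Tal1-/-. In all 4 HE1 libraries Myl4 was listed at 0, where 3 fragments would be 1.02 to 3.14 FPKM.

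Tnnt2, the gene of cardiac troponin T and a standard marker of cardiomyocytes, lies on the plus strand of chromosome 1 from 135836354 to 135852260. It was at 0, 1.19 and 0.208 FPKM in WT, at 4.95, 0 and 6.88 FPKM in Lmo2-/- and at 0.404, 0 and 0.198 FPKM in Tal1-/- Flk-1+ cells. The level in Lmo2-/- cells thus came from replicates 0 and 2, with about 24 and 32 fragments, and was listed at 0 in replicate 1. In WT HE1 it was at 7.80 and 6.57 FPKM, above every WT Flk-1+ library, and in HE1 labelled Lmo2-/- at 4.37 and 0 FPKM. The difference was 1.38 ± 0.75 (SE, limma, adjusted p = 1) from WT to Lmo2-/- Flk-1+ cells, from 0.82 to 2.31 with 1 library left out, and -0.22 ± 0.75 (limma, adjusted p = 1) from WT to Tal1-/- Flk-1+ cells.

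The sequences before the starts of these 4 genes are shown because Myl7 and Actc1 share a motif that Myl4 and Tnnt2 lack. Myl7 and Actc1 had the highest means over the 9 Flk-1+ libraries. Within Lmo2-/- Flk-1+ cells the mean of Actc1, 2.47 FPKM, was below those of Myl4, 4.24 FPKM, and Tnnt2, 3.94 FPKM. A link between the motif and the levels was not tested. The sequences are the 250 bases before the RefSeq start (GRCm38.p6), read in the direction of the gene. For Actc1 this window lies inside the range given above for the gene, as its RefSeq start is within that range. Capitals mark the CArG box, the serum response factor motif, and the GATA motif GATAA or its reverse complement.

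Myl7 (chr11:5898783-5899032, minus strand): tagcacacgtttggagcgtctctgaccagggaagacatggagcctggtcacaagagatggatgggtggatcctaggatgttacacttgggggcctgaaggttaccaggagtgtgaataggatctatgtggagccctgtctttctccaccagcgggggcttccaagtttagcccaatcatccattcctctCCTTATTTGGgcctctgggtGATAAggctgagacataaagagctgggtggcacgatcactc
Actc1 (chr2:114052876-114053125, minus strand): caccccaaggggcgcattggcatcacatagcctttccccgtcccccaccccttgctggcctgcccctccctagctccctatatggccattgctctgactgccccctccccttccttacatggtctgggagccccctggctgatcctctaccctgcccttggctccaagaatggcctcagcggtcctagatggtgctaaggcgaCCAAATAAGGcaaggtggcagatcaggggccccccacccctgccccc
Tnnt2 (chr1:135836084-135836333, plus strand): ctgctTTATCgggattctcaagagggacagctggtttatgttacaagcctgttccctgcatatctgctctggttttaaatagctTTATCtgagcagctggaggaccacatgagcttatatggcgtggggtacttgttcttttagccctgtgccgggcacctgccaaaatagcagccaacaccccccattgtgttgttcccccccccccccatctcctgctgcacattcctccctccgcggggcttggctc
Myl4 (chr11:104550413-104550662, plus strand): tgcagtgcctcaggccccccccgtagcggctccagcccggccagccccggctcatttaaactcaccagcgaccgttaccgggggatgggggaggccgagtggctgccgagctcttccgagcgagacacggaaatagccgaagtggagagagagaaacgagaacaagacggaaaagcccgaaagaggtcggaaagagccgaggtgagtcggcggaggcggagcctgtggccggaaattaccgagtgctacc

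In Myl7 the CArG box began 61 bases and the GATA motif 41 bases before the start, and in Actc1 the CArG box began 47 bases before it. Tnnt2 held a GATA motif 245 and another 166 bases before this start and none before its other RefSeq start. All 10 genes had a window, 13 in all. A gene was counted where any of its windows held the motif, while the shares are of single windows. On both strands the CArG box was found in 2 of the 10 genes, against 1.47% of 32851 promoter windows of the same length. A MEF2 site was found in 2 genes, Ttn and Mybpc3, against 2.92% of windows, and a GATA motif in 3, Myl7, Tnnt2 and Mybpc3, against 22.6%. The E-box CANNTG, the kind of motif that TAL1 binds with its partners, was found in 8 of the 10 genes against 66.2% of windows, and neither Actc1 nor Myl4 held it. The NK2 homeobox motif AAGTG was found in 6 genes against 40.7% of windows, the MCAT motif CATTCC in 5 against 12.6% and the TATA box TATAAA in 0 against 12.4%. Of the 13 windows themselves 11 held the E-box, 7 the NK2 homeobox motif, 5 the MCAT motif and 3 the GATA motif. The CArG box and the MEF2 site were each in 2 of the 13. A match is a description of these letters and not of a bound site.

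The other 2 troponin genes of the set were also low. Tnnc1, which encodes the calcium-binding troponin C of heart and slow muscle, was at 0, 3.05 and 0.878 FPKM in WT and at 2.23, 0 and 3.51 FPKM in Lmo2-/- Flk-1+ cells, and was listed at 0 in the 3 Tal1-/- libraries. It lies on chromosome 14 from 31208312 to 31211729, inside a wider locus of the deposited table. Tnni1, the slow skeletal troponin I that the embryonic heart uses before the cardiac form, was at 1.51, 0.612 and 0.218 FPKM in WT and at 0, 1.92 and 1.57 FPKM in Lmo2-/- Flk-1+ cells. It was likewise listed at 0 in the 3 Tal1-/- libraries, where 3 fragments would be 0.550 to 0.693 FPKM. Tnnt2 and Tnnc1 followed each other across Flk-1+ libraries: both were listed at 0 in 3 and above 0 in 4 of the 9 libraries, and both had their highest values in Lmo2-/- replicate 2. Over the 9 libraries Pearson's r of log2(FPKM + 1) was 0.86 and Spearman's rho 0.85, the highest of the 21 pairs of tested genes in both measures. These libraries differ in genotype and depth, and the values rest on few fragments.

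The myosin heavy chains are the motors of the thick filament. Myh6, the alpha chain, did not exceed 0.237 FPKM in any library, with 0.155, 0.237 and 0.134 FPKM in WT Flk-1+ cells and 0 in each Tal1-/- Flk-1+ library. Myh7, the beta chain that predominates in the embryonic ventricle, was at most 0.139 FPKM in the 9 Flk-1+ libraries. It was at 0.597 and 0.103 FPKM in WT HE1 and at 1.67 and 2.24 FPKM, about 37 and 16 fragments, in HE1 labelled Lmo2-/-. Myh6 and Myh7 are adjacent on chromosome 14 and similar in sequence, and 13.3% of the exon bases of Myh7 lie opposite antisense genes that include Mhrt. The kit kept strand, but the strand setting of the counting is not given in the sources used here, so reads of the 2 genes and of the antisense genes may not be fully separated.

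Ttn encodes titin, the spring and scaffold of the sarcomere, and at 100404 bases its transcript is the longest of the set. It was at 0.828, 0 and 0.347 FPKM in WT, 0.683, 0.0321 and 0.210 FPKM in Lmo2-/- and 0.0211, 0.0147 and 0.184 FPKM in Tal1-/- Flk-1+ cells. In WT HE1 it was at 0.488 and 0.532 FPKM, and in HE1 labelled Lmo2-/- at 0.784 and 0 FPKM. The Flk-1+ groups overlapped, and the exact permutation test, two-sided, gave p = 0.80 for WT to Lmo2-/- and p = 0.40 for WT to Tal1-/-. Mybpc3, myosin binding protein C of heart muscle on chromosome 2 from 91118144 to 91136516, was the gene listed at 0 throughout.

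**Figure D2:**
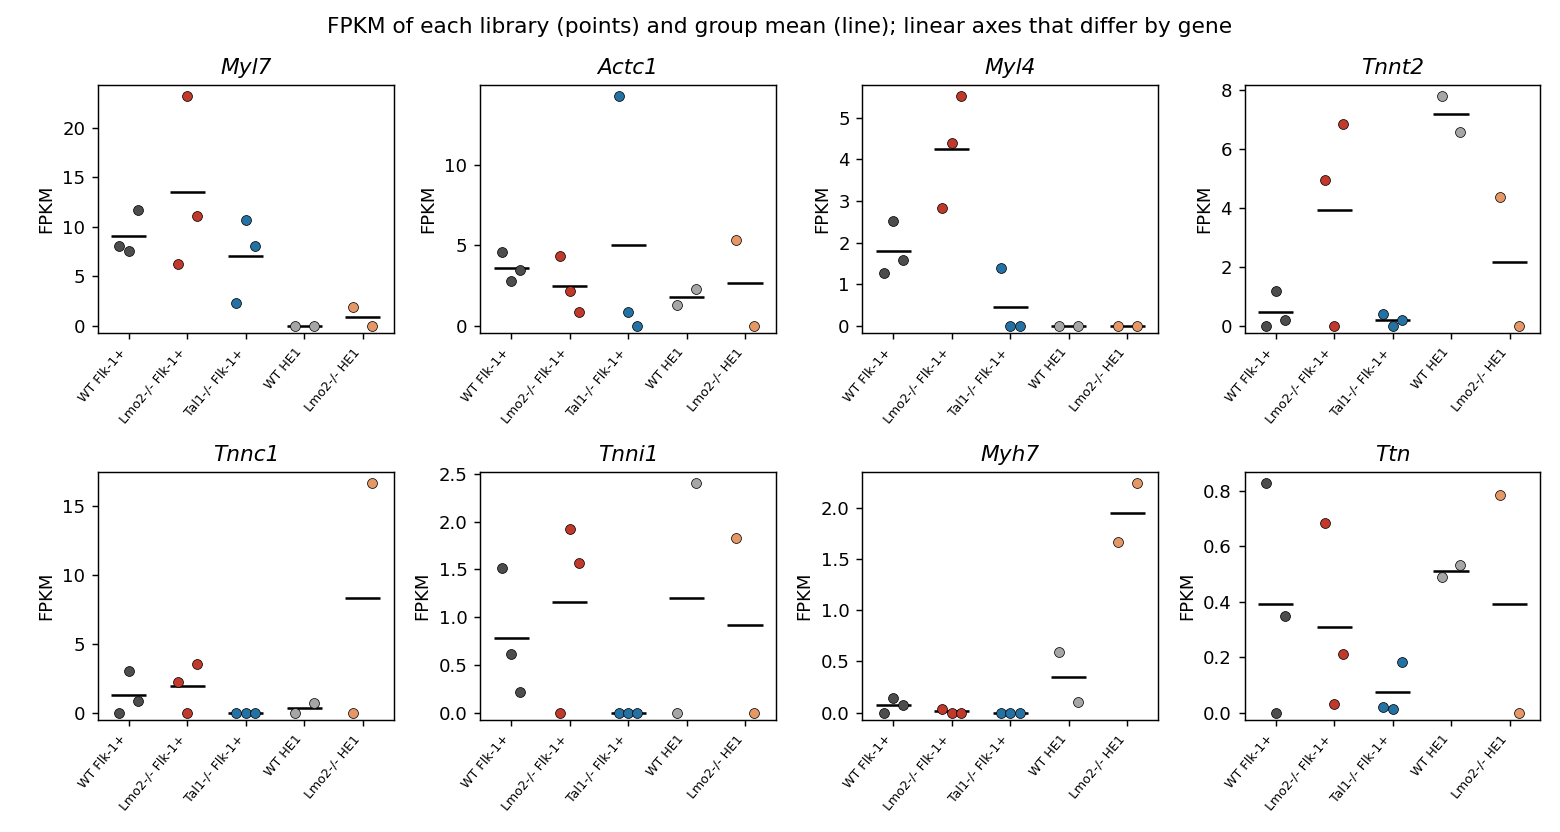
FPKM (vertical axis, linear, a different scale for each gene) of every library as a point and the mean of each of the 5 groups as a line, for 8 of the 10 genes; Myh6, at most 0.237 FPKM, and Mybpc3, at 0, are left out. The 3 Lmo2-/- Flk-1+ points of Myl4 lie above those of WT and Tal1-/-, and 1 library carries most of the group mean for Actc1 in Tal1-/- Flk-1+ cells and for Tnnc1 in HE1 labelled Lmo2-/-.

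The first comparison asked whether the genes differed between WT and Lmo2-/- haemangioblasts. None of the 7 tested genes was called by limma, nor any of all tested genes (0%). Lmo2 itself was not called, at 2.17 to 6.48 FPKM in Lmo2-/- against 21.6 to 30.8 FPKM in WT. The lack of a call thus cannot show that the 7 genes were unchanged. At an unadjusted p below 0.05, 0 of the 7 passed, against 2.22% of all tested genes. The difference was above 0 for 5 and below 0 for 2 of the 7, with a median of 0.31, while the median of all tested genes was -0.01. The median rested on single Lmo2-/- libraries, as it was 0.69 without replicate 0, -0.07 without replicate 1 and 0.00683 without replicate 2. Of the 5 above 0, Myl7 (-0.09) and Tnni1 (-0.09) turned negative without Lmo2-/- replicate 1 and Tnnc1 (-0.18) without WT replicate 0. Myl4 was the gene whose groups did not overlap, 1 of 7, and 8.21% of all tested genes had groups that did not overlap.

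The comparison of WT with Tal1-/- haemangioblasts shares its WT libraries with the first, and so the 2 sets of values are given side by side and not compared. No gene was called by limma, of the 7 or of all tested genes (0%). Tal1 itself was not called, at 2.74 to 3.41 FPKM in Tal1-/- against 22.0 to 37.4 FPKM in WT. Here too the lack of a call cannot show that the 7 genes were unchanged. Of the 7, 1, Myl4, had an unadjusted p below 0.05 in limma, against 6.11% of all tested genes. The difference was below 0 for all 7, from -1.03 for Myl4 to -0.10 for Myh7, with a median of -0.57 against -0.01 for all tested genes. The value of Actc1 turned positive without Tal1-/- replicate 2 and that of Myl7 (0.06) without Tal1-/- replicate 0, and that of Tnnt2 (0.11) without WT replicate 1. On the linear scale the mean of Actc1 was higher in Tal1-/-, at 5.05 FPKM with 14.3 FPKM in replicate 0, against 3.62 FPKM in WT. Tnni1, at 0.218 to 1.51 FPKM in WT and listed at 0 in Tal1-/-, was the tested gene whose groups did not overlap, against 12.6% of all tested genes. Among those not tested, Myh6 did not overlap either.

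Between Lmo2-/- and Tal1-/- haemangioblasts the difference was again below 0 for all 7, with a median of -0.97. Actc1 (-0.05 ± 0.89, SE) and Myh7 (-0.02 ± 0.28) were close to 0, and without Tal1-/- replicate 2 the value of Actc1 was 0.76. The mean FPKM of Actc1 was higher in Tal1-/-, at 5.05 FPKM against 2.47 FPKM in Lmo2-/-. None of the 7 was called by limma, against 2 of all tested genes (0.0145%), Grb10 and Tex15. Myl4 again had an unadjusted p below 0.05 in limma, 1 of 7 against 5.96% of all tested genes, and was the gene whose groups did not overlap, against 13.3% of all tested genes.

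**Figure D3:**
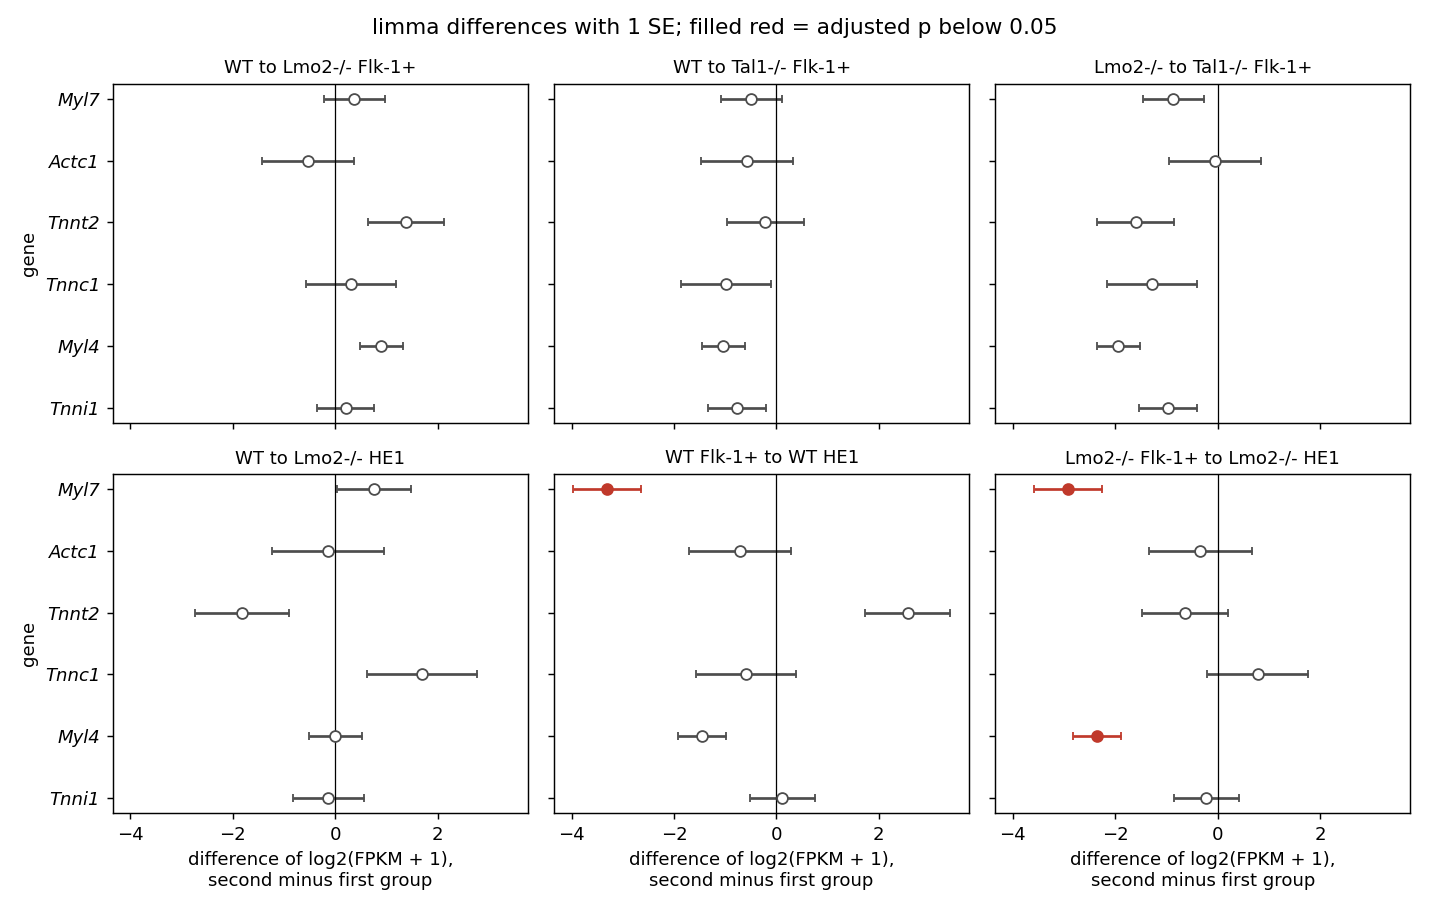
Difference of log2(FPKM + 1) between the groups named above each panel (horizontal axis, second minus first group) with 1 SE from limma, for the 6 tested genes other than Myh7 (rows); filled red points have an adjusted p below 0.05 whatever their level. No point is filled in the comparisons of genotypes, and in the comparisons of Flk-1+ cells with HE1 Myl7 is filled at -3.31 and -2.92 and Myl4 at -2.36 in Lmo2-/- cells.

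The step from haemangioblasts to HE1 was where a sarcomere gene passed the test. In WT cells Myl7 went from 7.54 to 11.7 FPKM to a listing at 0 in both HE1 libraries, with a fitted difference of -3.31 ± 0.66 (SE, limma, adjusted p = 0.00700). This value depends on the pseudocount, as the gene is listed at 0 in HE1, and no fold is given. Its mean of 9.09 FPKM fell short of the criterion of 10, so that 0 of the 7 tested genes were called, against 6.98% of all tested genes. By the adjusted p alone Myl7 was 1 of 7, against 9.74%. Without either of the WT HE1 libraries its adjusted p rose to 0.0667 and 0.0568. At an unadjusted p below 0.05 the count was 3 of 7, against 23.9% of all tested genes: Myl7, Myl4 (-1.45 ± 0.47, adjusted p = 0.0713) and, in the opposite direction, Tnnt2 (2.56 ± 0.84, adjusted p = 0.0749).

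In Lmo2-/- cells Myl7 was the 1 gene of 6 that was called by limma, against 19.6% of all tested genes. It fell from 6.24 to 23.2 FPKM in Flk-1+ cells to 1.86 and 0 FPKM in HE1, by 2.92 on the log2 scale (SE 0.66, adjusted p = 0.00676). Without HE1 replicate 1, the shallow library, the adjusted p was 0.0754, and without Flk-1+ replicate 1 the mean fell below 10 FPKM and the call was lost. Leaving out an HE1 library, of either genotype, leaves 1 library in its group, which is assumed to vary like the other groups. By the adjusted p alone 2 of 6 passed, against 25.5% of all tested genes. Besides Myl7, Myl4 went from 2.83 to 5.51 FPKM to a listing at 0 in both HE1 libraries (fitted difference -2.36 ± 0.47, adjusted p = 0.00335). Myh7 was at most 0.0359 FPKM in Flk-1+ cells against 1.67 and 2.24 FPKM in HE1. By the unadjusted p the count below 0.05 was again 2 of 6, against 38.7% of all tested genes. Exact permutation tests, two-sided, gave p = 0.10 for Myl7 and Myl4 in both stage comparisons, the smallest that 3 against 2 libraries allow.

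RNA of some marker genes differed between the stages as well. Of 10 endothelial markers, which HE1 is itself expected to carry and which include the sort gene Tek, 9 were higher in every WT HE1 than in every WT Flk-1+ library, where 44.9% of all tested genes had groups that did not overlap. In Lmo2-/- cells 8 of the 10 were higher, where that share was 47%. Their summed FPKM was 126 to 324 in the Flk-1+ libraries of both genotypes and 1086 to 1347 in HE1. Most of the Flk-1+ sum was Kdr, the gene of the sort receptor Flk-1. It was at 100 to 252 FPKM there and at 143 to 275 FPKM in HE1. Of 10 smooth muscle markers 5 were higher without overlap in WT HE1, against the same 44.9%, and 4 in HE1 labelled Lmo2-/-, against 47%. These counts were near the shares of all tested genes, so they set the list as a whole apart little. Their sum, 9.65 to 23.9 FPKM in these Flk-1+ cells and 207 to 875 FPKM in HE1, was mostly Acta2, smooth muscle actin and a paralogue of Actc1, at 0.239 to 0.976 and at 114 to 816 FPKM. Without Acta2 the sum was 9.26 to 23.3 FPKM in these Flk-1+ libraries and 59.1 to 93.1 FPKM in HE1, most of it Tagln and Smtn, while Myh11, which defines mature smooth muscle, was at most 0.617 FPKM and Cnn1 at most 0.853 FPKM in HE1. The part of these in the values of the sarcomere genes was not tested.

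When HE1 labelled Lmo2-/- was compared with HE1 labelled WT, none of the 6 genes was called by limma, against 3.01% of all tested genes, and 0 of 6 had an unadjusted p below 0.05, against 20.7%. Tnnt2 was lower in both, at 4.37 and 0 FPKM against 7.80 and 6.57 FPKM (-1.82 ± 0.92, limma, adjusted p = 0.284), the 1 gene of 6 without overlap, against 39.7% of all tested genes. The value was -3.03 without replicate 0 and -0.60 without replicate 1, the shallow library, and 2 against 2 libraries allow no exact permutation p below 0.333. Tnnc1 was at 0 and 16.7 FPKM in the HE1 labelled Lmo2-/-, against 0 and 0.696 FPKM in WT. The high value was in the shallow library and rested on about 12 fragments. The row shared by Tnni3 and Dnaaf3, chosen after its values were seen, was at 0.521 and 44.1 FPKM there and at 0 in both WT libraries. Its 44.1 FPKM was in the shallow library as well. Without replicate 0 the group was this library alone, with its spread taken from the other groups, and Tnnc1 was then called at 3.76 (limma, adjusted p = 0.0125), while without replicate 1 its difference was -0.38. Of 8 fibroblast markers 6, which include Col1a1 and Postn, were higher in both libraries labelled Lmo2-/- than in either WT library. Of all tested genes 39.7% did not overlap, in either direction. The 8 summed to 30.2 to 38.7 FPKM in WT HE1 and to 214 and 857 FPKM in the HE1 labelled Lmo2-/-, with Postn at 12.4 to 19.97 and at 99.7 to 372 FPKM. Of 15 cardiac transcription factors 12 were tested, and 2, Hand1 and Tbx20, were called higher in HE1 labelled Lmo2-/-, against 3.01% of all tested genes. Hand1 was at 2.96 to 17.7 FPKM in WT HE1 and at 117 to 210 FPKM in HE1 labelled Lmo2-/-. Tbx20 was at 23.5 to 32.5 and at 116 to 190 FPKM. At an unadjusted p below 0.05, 4 of the 12 were higher and 0 lower, against 20.7%. The part of these fibroblast and cardiac genes in the level of Myh7 was not tested.

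The interaction of Lmo2 genotype and stage asks whether the change to HE1 differed between the genotypes. None of the 6 genes was called by limma, against 0.348% of all tested genes. At an unadjusted p below 0.05 there was 1 of 6, Tnnt2 (-3.20 ± 1.19, SE, adjusted p = 0.288), against 12.1%. Its value was -1.99 without replicate 1 labelled Lmo2-/-, the shallow library. Without HE1 replicate 0 labelled Lmo2-/-, which leaves the shallow library alone with a spread taken from the other groups, it was -4.41 and its adjusted p 0.0349. A difference between the genotypes in the fall of Myl7 (0.39 ± 0.94, adjusted p = 0.899) was smaller than its error.

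Other genes of the cardiac programme were described from lists. The WT, Lmo2-/- and Tal1-/- Flk-1+ libraries are shared between the 3 comparisons, and the counts are given side by side. Of 30 further sarcomere and Z-disc genes 14 were tested, and none was called in a comparison of Flk-1+ cells. Csrp3, Myoz2, Lmod2, Xirp1 and Xirp2 were listed at 0 in all libraries. The highest were Tpm1, alpha-tropomyosin, which many cell types express and which ran from 44.6 to 133 FPKM in Flk-1+ cells, the filamin Flnc at 6.70 to 34.5 FPKM and Pdlim5 at 5.48 to 13.9 FPKM. At an unadjusted p below 0.05, 1 of 14 was higher in Lmo2-/- than in WT, against 2.22% of all tested genes, 2 of 14 were lower in Tal1-/- than in WT, against 6.11%, and 3 of 14 were lower in Tal1-/- than in Lmo2-/-, against 5.96%. The first was Myh7b, a myosin heavy chain of heart and slow muscle, at 0.0753, 1.38 and 0.228 FPKM in WT, 1.66, 4.38 and 2.71 FPKM in Lmo2-/- and 0.0357, 0 and 0 FPKM in Tal1-/- Flk-1+ cells. Its Lmo2-/- libraries lay above all others (1.36 ± 0.38, SE, limma, adjusted p = 1 from WT), where 8.21% of all tested genes did not overlap between WT and Lmo2-/-. The 2 lower in Tal1-/- than in WT were Tpm1 (-1.003 ± 0.34) and Des (-1.37 ± 0.54), the gene of the muscle intermediate filament desmin. Myh7b and Des were chosen after their values were seen. The median difference of the 14 genes was -0.09 from WT to Lmo2-/-, -0.36 from WT to Tal1-/- and -0.22 from Lmo2-/- to Tal1-/-.

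Of 15 calcium handling and secreted genes 7 were tested and none was called in Flk-1+ cells. At an unadjusted p below 0.05, 1 of 7 was higher in Lmo2-/- than in WT, against 2.22% of all tested genes. From WT to Tal1-/- 0 of 7 differed, against 6.11%, and 3 of 7 were lower in Tal1-/- than in Lmo2-/-, against 5.96%. The first was Hrc, a calcium-binding protein of the sarcoplasmic reticulum, chosen after its values were seen. It was at 0.992, 1.09 and 0.685 FPKM in WT, 2.55, 2.58 and 4.37 FPKM in Lmo2-/- and 1.41, 0 and 0 FPKM in Tal1-/- Flk-1+ cells. Every Lmo2-/- library lay above all others (1.09 ± 0.40, SE, limma, adjusted p = 1 from WT). Of all tested genes 8.21% did not overlap between WT and Lmo2-/-. Pln, Sln, Trdn, Nppb and Smpx were listed at 0 in all libraries, and Atp2a2, the calcium pump of the sarcoplasmic reticulum that other cells also use, was at 30.6 to 53.8 FPKM in Flk-1+ cells.

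The cardiac transcription factors ranged from far above the sarcomere genes to 0. Their summed FPKM was 155 to 274 in WT, 261 to 495 in Lmo2-/- and 204 to 298 in Tal1-/- Flk-1+ cells, led by Hand1 at 48.9 to 257 FPKM, Gata4 at 34.01 to 114 FPKM, Tbx20 at 15.6 to 48.8 FPKM and Gata6 at 12.8 to 23.1 FPKM. Others were as low as the sarcomere genes in Flk-1+ cells, with Nkx2-5, a defining factor of the heart, at 0 to 0.399 FPKM, Irx4 at 0 to 0.404, Hopx at 0 to 0.466, Gata5 at 0 to 2.53 and Tbx5 at 0 to 3.38 FPKM. Of the 15 factors 12 were tested and none was called by limma in Flk-1+ cells. At an unadjusted p below 0.05, 4 of the 12 were higher in Lmo2-/- than in WT and none lower, against 2.22% of all tested genes in either direction, with a median difference of 0.94. From WT to Tal1-/- 1 of the 12, Smarcd3, was lower, against 6.11%, with a median of -0.45. From Lmo2-/- to Tal1-/- 7 of the 12 were lower, against 5.96%, with a median of -0.999. Smarcd3, chosen after its values were seen, the chromatin remodelling subunit BAF60c of the early heart, was at 4.61, 7.82 and 6.22 FPKM in WT, at 12.8, 15.9 and 17.6 FPKM in Lmo2-/- and at 2.58, 0.903 and 3.71 FPKM in Tal1-/- Flk-1+ cells. Like Myl4, it had every Lmo2-/- library above every library of the other genotypes (limma, 1.20 ± 0.46, SE, adjusted p = 1 from WT). The share of all tested genes without overlap between WT and Lmo2-/- was 8.21%.

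**Figure D4:**
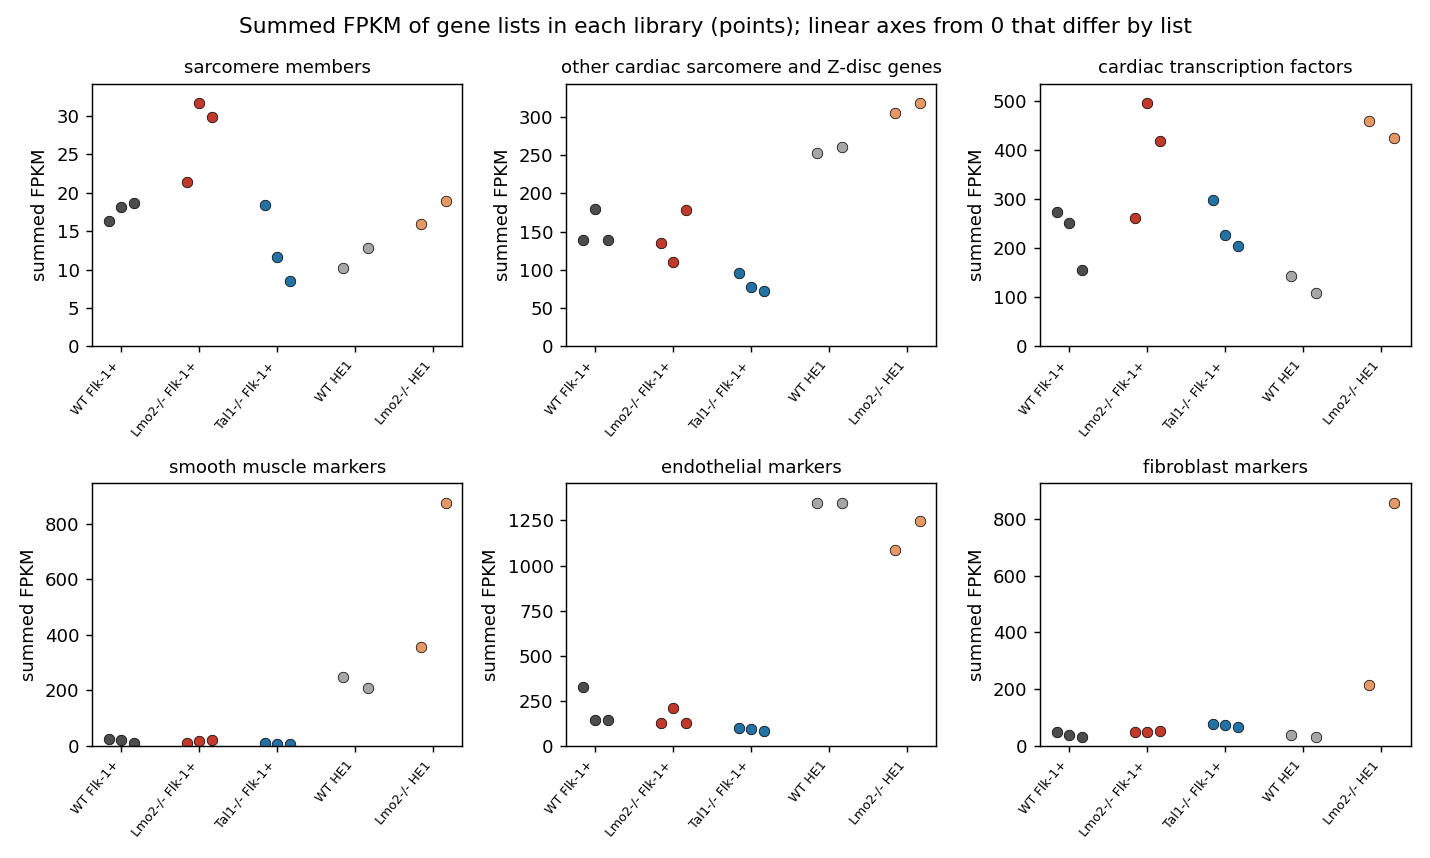
Summed FPKM (vertical axis, linear from 0, a different scale for each list) of 6 gene lists in every library, shown as points by group. The sarcomere genes stay at or below 31.7 FPKM in all libraries, the cardiac transcription factors lie at or above 108 FPKM in all, and the sums of the endothelial list and of the smooth muscle list, the latter mostly Acta2, are higher in the 4 HE1 libraries than in the 9 Flk-1+ libraries.

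The paralogues of the genes and the markers of skeletal muscle were checked for muscle of another kind. Acta1 and the skeletal list's Cdh15 were not analysed here. Myod1, Myf5, Myog and Myf6, the regulators that define skeletal muscle, were listed at 0 in all 13 libraries. The 9 skeletal markers with a row summed to at most 0.535 FPKM in any Flk-1+ library. Tnnt3, the fast skeletal troponin T, was nonetheless at 0.912 to 14.7 FPKM in WT, 9.90 to 12.2 FPKM in Lmo2-/- and 3.38 to 8.26 FPKM in Tal1-/- Flk-1+ cells and listed at 0 in all 4 HE1 libraries. In each of the 9 Flk-1+ libraries it was above Tnnt2.

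Genes whose levels ran most like the mean z score of the 7 tested genes were also listed. Over the 9 Flk-1+ libraries they were Tbc1d17, Sun2, Hdac6, Sirt4 and Dbn1, with Pearson's r from 0.95 to 0.99. Over all 13 libraries they were Prpf40b, Kcnj5, Mxi1, Sf3b2 and Plscr1, with r from 0.80 to 0.87. None of these 10 genes is on a list of muscle genes used here, and with 13802 genes and so few libraries such correlations only describe these samples. Kcnj5, which encodes a potassium channel subunit known from the atrium, was at 1.04 to 2.39 FPKM in WT, 1.48 to 2.38 FPKM in Lmo2-/- and 0 to 0.343 FPKM in Tal1-/- Flk-1+ cells.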

How the data were processed

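RNAseq libraries of Flk-1+ cells and HE1 were made by the authors with a stranded mRNA kit. Their processing notes name TopHat2 2.0.9, Cufflinks 2.0.0 and Cuffdiff 2.0.1, and the deposited loci are on mm10 (GRCm38). The deposited table gives FPKM per gene and library (13 columns, of which 0 were left out), as computed by the authors. The authors' own comparisons (log2 fold changes, p-values and q-values) were not used. GEO's labels list 1 sample per group, and libraries were told apart by the column names.

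Genes that reached 1 FPKM in 2 or more libraries, with a locus over 200 bp, were tested with limma 3.58.1 (R 4.3.3) on log2(FPKM + 1), with a group term over all 13 libraries and a variance trend, two-sided. limma was tested on simulated data. Single genes had exact permutation tests. Alternatives were another pseudocount, filters, scalings and weights, the compared groups alone, a replicate block and each library left out. All members were described in every library. From the other lists, genes called in Flk-1+ cells or else the 5 highest were named, with the 5 genes most correlated with the members. The members and lists were chosen with earlier results of these data known. Sequences came from RefSeq (GRCm38.p6).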

Additional observations from a re-analysis of the deposited data

How the results depend on the processing

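The call of Myl7 from Lmo2-/- Flk-1+ cells to Lmo2-/- HE1 was the result that depended most on the processing. The number of sarcomere genes called there was 1, and it was 0 with the compared groups alone and 0 with array weights. By the adjusted p alone it was 2, Myl7 and Myl4, with Myh7 not counted because it is described there without a test. It was 0 without Lmo2-/- Flk-1+ replicate 1 and without Lmo2-/- HE1 replicate 1, and 2 without Lmo2-/- HE1 replicate 0. For WT cells between the stages it rose from 0 to 1 with a common median and to 1 by the adjusted p alone. Between the HE1 genotypes it was 0 to 1, with Tnnc1 called without Lmo2-/- HE1 replicate 0. The cause was not tested.

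Several differences changed sign. With a pseudocount of 0.1, Tnni1 was -0.0374 from WT to Lmo2-/- Flk-1+ cells and -0.51 between the WT stages (-0.0513 with a common median), and the interaction of Actc1 was -0.56. With quantile normalization Myh7 was 0.00841 from WT to Tal1-/- and 0.0160 from Lmo2-/- to Tal1-/-, Actc1 was 0.14 from Lmo2-/- to Tal1-/- and 0.0494 from WT to Lmo2-/- HE1, and Tnni1 was 0.0280 from WT to Lmo2-/- HE1 and 0.0683 from Lmo2-/- Flk-1+ cells to HE1.

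With 1 library left out, differences from WT to Lmo2-/- Flk-1+ cells ran from -0.0855 to 0.78 for Myl7, -0.18 to 0.96 for Tnnc1 and -0.0875 to 0.69 for Tnni1. From WT to Tal1-/- they ran from -1.73 to 0.23 for Actc1, -0.45 to 0.11 for Tnnt2 and -0.85 to 0.0552 for Myl7, and from Lmo2-/- to Tal1-/- from -1.21 to 0.76 for Actc1. Between the HE1 genotypes they ran from -1.47 to 1.19 for Actc1, -0.38 to 3.76 for Tnnc1 and -1.02 to 0.75 for Tnni1. From WT Flk-1+ cells to HE1 Tnni1 ran from -0.77 to 1.00. From Lmo2-/- Flk-1+ cells to HE1 they ran from -1.66 to 1.00 for Actc1, -1.85 to 0.57 for Tnnt2, -1.29 to 2.86 for Tnnc1 and -0.97 to 0.53 for Tnni1. The interaction ran from -0.95 to 1.71 for Actc1, -0.37 to 1.15 for Myl7, -0.69 to 3.45 for Tnnc1 and -1.22 to 0.55 for Tnni1.

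Same-numbered libraries did not deviate together (r from -0.184 to 0.169 over 23 pairs of libraries), so the numbers gave no pairing. Pairs with other numbers had r from -0.265 to 0.343 over 44 pairs. The highest were WT with Lmo2-/- Flk-1+ libraries: replicate 0 with 1 (0.343), 1 with 2 (0.309) and 2 with 0 (0.296). Whether these libraries shared a batch was not tested, and no fit paired them. With a replicate block the number of sarcomere genes called was 1 from Lmo2-/- Flk-1+ cells to HE1 and 0 in the others, as without it, while calls over all genes went from 2707 to 2189 there and from 48 to 14 for the interaction. A listing at 0 allows up to 3 fragments, which are worth the most FPKM in Lmo2-/- HE1 replicate 1.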
